A study of Mus musculus with 2 samples.

Results

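The 40 cell cycle genes described here, out of 32285 genes counted in each library, are 18 genes whose RNA is typical of S phase, 21 typical of G2 and M phase, and Stmn1, a microtubule-destabilizing protein of dividing cells that was put in neither list. They were chosen by name for their known roles, with earlier results of these data known, and all 40 were detected in both libraries. Over a whole library their UMI counts (counts of single captured RNA molecules) ran from 114 for the mitotic kinase Aurka to 4391 for Stmn1 in the WT cells, and from 163 for the licensing factor Cdc6 to 5848 for Stmn1 in the 6PGDKO cells.

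Leukocytes were sorted as live CD45+ cells (the labels also name CD11b+) from tumors of AT3, a mouse mammary tumor cell line, on day 30 after injection into female mice of 6 to 12 weeks, and their RNA was counted cell by cell. The library labelled WT came from Pgd fl/fl mice and the library labelled 6PGDKO from Pgd fl/fl LysM-Cre mice. Both carry floxed alleles of Pgd, which encodes the oxidative pentose phosphate enzyme 6PGD. The Cre of the second is driven by the Lyz2 (lysozyme M) locus, which is active in macrophages, monocytes and neutrophils. This locus is also active in some dendritic cells and in few lymphocytes. Each library is the pooled tumor cells of 10 mice, so there is 1 library per genotype, genotype and library cannot be told apart, and no difference between them was tested. All intervals below are 95% intervals, exact for single shares and levels, and cover counting error only. A count of 0 is given with the share that 3 counts would make.

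A cell that divides first copies its DNA in S phase and then separates the copies in M phase after the G2 gap. Genes of the first list are switched on by E2F factors at the start of S phase and encode the helicase that opens DNA, the clamp that holds the polymerases and the enzymes that make deoxynucleotides. Genes of the second list rise later through the CHR and CCAAT promoter elements read by the DREAM and B-MYB complexes and by NF-Y, and encode cyclins, mitotic kinases, kinetochore proteins and spindle motors. In tumors, T cells multiply after they meet antigen, whereas macrophages may either divide in place or come from monocytes that have stopped dividing.

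Promoters of both lists are shown first because they carry letters whose shares differ between the lists. RefSeq promoters of the GRCm38.p6 build were found for 34 of the 40 members, and Mcm4, Gins2, Ccna2, Tpx2, Aurkb and Stmn1 had no entry. In the 250 bases before the start site, on either strand, the E2F core GCGGGAA was found in 33.3% of the 18 promoters of S genes (5 of 16 genes, since Mcm7 and Uhrf1 each have 2 promoters, counted separately), in 0 of the 18 promoters of G2/M genes and in 3.82% of all 32851 promoters. The CHR letters TTTGAA or TTCGAA stood in 44.4% of the G2/M promoters, in 16.7% of the S promoters and in 17.1% of all promoters. CCAAT was common to both lists, at 77.8% of the S and 88.9% of the G2/M promoters against 33.8% of all, and CCAAT together with a CHR was found in 44.4% of the G2/M, 16.7% of the S and 6.02% of all promoters. With the next 50 bases included, the CHR share of the G2/M promoters was 77.8% against 19.2% of all, and the E2F share of the S promoters was 44.4% against 4.60%. In the 250 bases alone, Birc5, Nusap1, Tk1 and Tyms had none of these motifs. No motif overlapped another in these windows, and a match describes letters and not a bound site. In the lines below, capitals mark these motifs, on either strand, 5′ to 3′ along the gene's strand. Cdc6 (the factor that loads the helicase) at chr11:98907901-98908150 and Rrm1 (the large subunit of ribonucleotide reductase) at chr7:102441445-102441694, both on the + strand, show the E2F core. Cdk1 (the kinase that drives mitosis) at chr10:69352913-69353162, Mki67 (Ki-67, the coat of mitotic chromosomes) at chr7:135716380-135716629 and Top2a (the topoisomerase that untangles copied DNA) at chr11:99024190-99024439, all on the - strand, show CCAAT beside CHR letters.
Cdc6: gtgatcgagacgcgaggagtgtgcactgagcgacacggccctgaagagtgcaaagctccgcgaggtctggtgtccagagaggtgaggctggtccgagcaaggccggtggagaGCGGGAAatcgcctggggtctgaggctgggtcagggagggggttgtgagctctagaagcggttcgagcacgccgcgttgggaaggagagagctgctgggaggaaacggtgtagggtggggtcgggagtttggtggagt
Rrm1: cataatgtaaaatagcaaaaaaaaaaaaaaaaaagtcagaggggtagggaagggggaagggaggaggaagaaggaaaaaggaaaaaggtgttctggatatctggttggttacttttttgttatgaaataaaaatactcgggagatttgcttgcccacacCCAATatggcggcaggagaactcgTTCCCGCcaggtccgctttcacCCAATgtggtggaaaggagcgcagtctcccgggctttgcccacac
Cdk1: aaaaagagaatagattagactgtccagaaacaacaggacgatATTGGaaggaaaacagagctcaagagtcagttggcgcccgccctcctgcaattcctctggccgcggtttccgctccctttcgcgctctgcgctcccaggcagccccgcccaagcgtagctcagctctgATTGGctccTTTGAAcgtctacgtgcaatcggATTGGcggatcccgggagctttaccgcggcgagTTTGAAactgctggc
Mki67: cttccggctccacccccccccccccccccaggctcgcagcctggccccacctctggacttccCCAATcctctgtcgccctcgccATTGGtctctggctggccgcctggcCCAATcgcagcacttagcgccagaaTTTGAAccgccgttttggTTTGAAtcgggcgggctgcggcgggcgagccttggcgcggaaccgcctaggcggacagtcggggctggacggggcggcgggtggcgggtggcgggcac
Top2a: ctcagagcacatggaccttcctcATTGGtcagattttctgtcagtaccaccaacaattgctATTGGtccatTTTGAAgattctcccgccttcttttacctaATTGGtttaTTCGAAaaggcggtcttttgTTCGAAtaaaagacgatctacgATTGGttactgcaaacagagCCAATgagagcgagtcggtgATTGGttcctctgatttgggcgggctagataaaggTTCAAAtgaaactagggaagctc

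The WT library held 3728 barcodes and 27245625 UMIs (median 5317.5 UMIs per barcode) and the 6PGDKO library 3014 barcodes and 28827045 UMIs (median 7296), and the libraries shared 0 barcodes. After filters on gene number and mitochondrial RNA, 3565 and 2798 cells were kept, and their 17 clusters were named from fixed marker genes. Each name below stands for the marker class (T cell-like, macrophage-like and so on) and is written without the suffix. A cluster with Cd207 and Epcam among its leading genes had no name and is called the Cd207 cluster. Immunoglobulin genes led 1 of the 3 macrophage clusters, and the epithelial cluster scored slightly higher for the fibroblast list (3.81) than for the epithelial list (3.63), of which only the second had at least 3 detected markers. Pgd itself was at 106 CPM (UMI counts summed over a class and scaled to a common total) in WT and 29.0 CPM in 6PGDKO macrophages, and at 24.7 and 30.4 CPM in T cells.

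Because UMIs per cell differed between the libraries, each cell was thinned at random to 3000 UMIs, and the 566 WT and 385 6PGDKO cells below that depth were left out. A cell was called cycling when at least 3 of the 18 S genes or at least 3 of the 21 G2/M genes had a UMI, so the phases are S only, G2/M only or both. Stmn1 took no part in the call. It was detected in 55.7% of the cycling and 4.37% of the other T cells of the WT library, and in 68.3% and 5.82% of those of the 6PGDKO library. In macrophages the same shares were 62.0% and 6.46% in WT and 50.5% and 8.67% in 6PGDKO.

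Each list also marked the cells that the other list had called. For an S gene, cells called by the G2/M list were compared with all cells that this list did not call, and the reverse for a G2/M gene, so a gene's own list chose neither group. In both T cells and macrophages of both libraries, 18 of 18 S genes were detected more often in the called than in the other cells, and so were 21 of 21 G2/M genes. The share over all genes was not counted for these groups. By CPM, 58.1% and 53.3% of all genes were higher in cycling than in non-cycling T cells of WT and 6PGDKO. In macrophages these shares were 58.9% and 61.7%. In WT T cells the median S gene was detected in 29.1% of the 86 cells called by G2/M genes and in 4.06% of the other 1331, and the median G2/M gene in 10.4% of the 212 cells called by S genes and in 0.913% of the other 1205. Pclaf, the PCNA-associated factor, was in 77.9% of the called and 1.88% of the other WT T cells. The histone-message binder Slbp and the clamp Pcna were common outside the called cells too, at 22.8% and 21.9% of them. Top2a was found in 43.1% of the WT T cells with an Mki67 UMI and in 7.92% of those without, and in 58.2% and 10.6% of the 6PGDKO T cells. In NK and ILC, where 4 WT and 8 6PGDKO cells were called by the G2/M list, 13 and 17 of the 18 S genes were higher. There 16 WT and 22 6PGDKO cells were called by the S list, and 15 of the 21 G2/M genes were higher in each library.

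**Figure D1:**
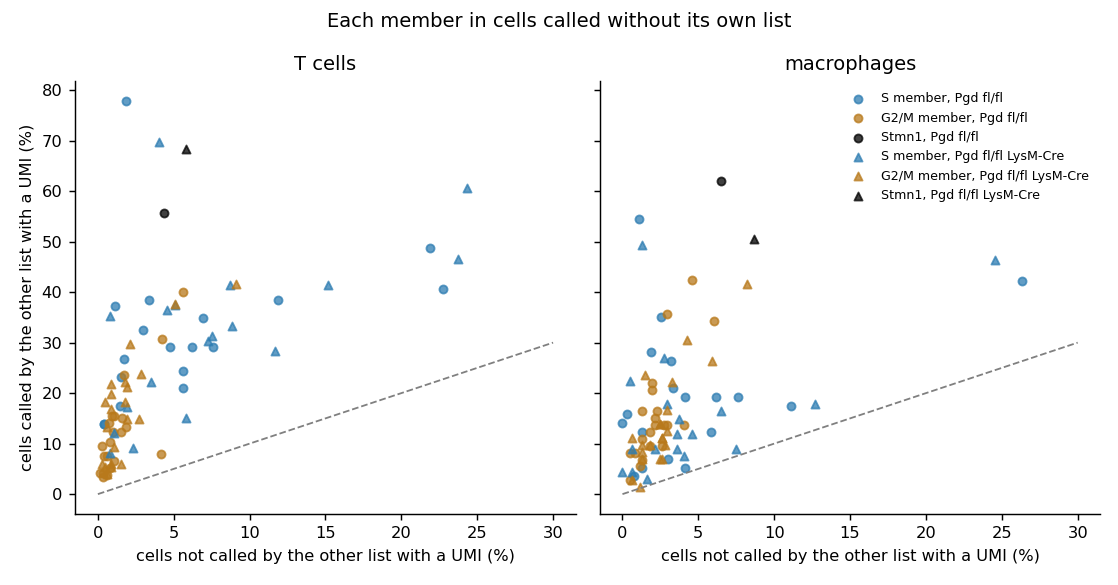
Each point is 1 member in T cells (left) or macrophages (right), with the percent of cells with a UMI among those not called by the other list on the x axis and among those called by it on the y axis (for Stmn1, by either list). All points lie above the dashed line of equal shares, with Stmn1 at 55.7% against 4.37% in WT T cells.

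The background of the call was read from neutrophils, which do not divide. Only 10 WT and 9 6PGDKO neutrophils reached 3000 UMIs, of which 2 (20%, 2.52 to 55.6) and 1 (11.1%, 0.281 to 48.2) were called, too few to set a background at that depth and with intervals that hold most shares given below. All cells were therefore also thinned to 1000 UMIs, and there 1 of 57 WT neutrophils (1.75%, median depth 2256 UMIs) and 0 of 71 6PGDKO neutrophils (which allows up to 4.23%, median depth 2121) were called. At this depth 4.99% of 1663 WT T cells (median depth 4877) and 10.9% of 1048 6PGDKO T cells (median depth 5230.5) were called. The WT share lay inside the interval of the WT neutrophils, which runs to 9.39%, and the 6PGDKO share lay above the limit of its neutrophils. Dendritic cells (DC) were called at 1.96% of 102 WT cells (median depth 13451.5), inside the neutrophil interval, and at 11.3% of 142 6PGDKO cells (median depth 14927.5), above it. Pcna alone does not separate the classes at this depth, since it was found in 12.3% and 12.7% of neutrophils and in 9.92% and 10.6% of T cells.

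At 3000 UMIs, 420 of 2999 WT cells (14.0%, 12.8 to 15.3) and 459 of 2413 6PGDKO cells (19.0%, 17.5 to 20.6) were cycling, a difference of 5.02 percentage points (3.03 to 7.03). T cells held 54.3% of the cycling cells of the WT library and 47.5% of those of the 6PGDKO library, and macrophages 23.8% and 22.9%. B cells made up 6.43% and 0.436% of the cycling cells, with 573 B cells kept in the WT and 36 in the 6PGDKO library, and DC 1.43% and 6.32%.

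The genotypes were furthest apart in T cells and DC. In T cells 228 of 1417 WT cells (16.1%, 14.2 to 18.1) and 218 of 871 6PGDKO cells (25.03%, 22.2 to 28.0) were cycling, a difference of 8.94 points (5.52 to 12.4). Without thinning the shares were 25.5% and 34.5%. A further 211 WT and 136 6PGDKO T cells were a single gene short of the call, and 90 and 57 were just at it. In DC the shares were 6 of 100 (6.00%, 2.23 to 12.6) and 29 of 138 (21.01%, 14.5 to 28.8), a difference of 15.01 points (6.21 to 23.2), but without thinning they were 46.1% and 51.4%, a difference of 5.33 points (-7.29 to 17.7).

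In the other classes the interval of the difference covered 0 at 3000 UMIs. Macrophages were cycling at 14.5% of 688 WT and 15.4% of 682 6PGDKO cells (difference 0.861 points, -2.92 to 4.65), but at 40.4% and 46.5% without thinning, a difference of 6.09 points (1.03 to 11.1). NK and ILC stood at 16.3% of 98 and 22.0% of 109 cells (5.69 points, -5.21 to 16.2), and monocytes at 7.58% of 132 and 8.04% of 336 cells (0.460 points, -5.85 to 5.28). WT B cells were as low as monocytes, at 7.11% of 380 cells (4.73 to 10.2). The 6PGDKO library had 2 cycling cells among 19 B cells (10.5%, 1.30 to 33.1). The Cd207 cluster (18.1% of 116 and 21.7% of 161 cells, difference 3.64 points, -6.16 to 12.8) and epithelial cells (17.2% of 58 and 21.6% of 74 cells, 4.38 points, -9.68 to 17.5) lay between the T cell shares of the WT and 6PGDKO libraries. An interval that covers 0 does not show that the genotypes were alike.

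**Figure D2:**
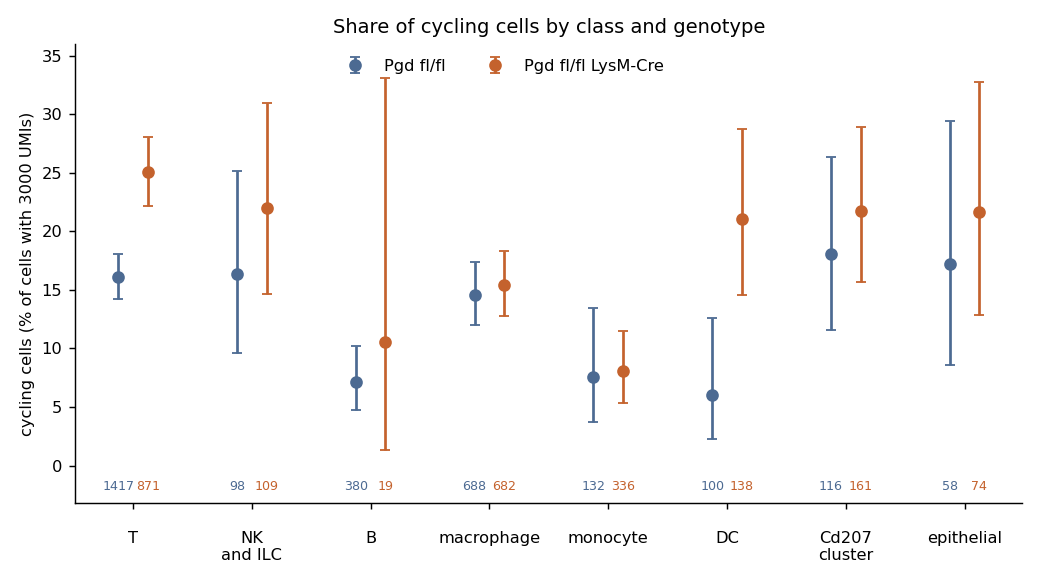
Percent of cells called cycling (y axis, cells thinned to 3000 UMIs) in each class, with WT (Pgd fl/fl) in blue and 6PGDKO (Pgd fl/fl LysM-Cre) in orange; bars are exact 95% intervals of counting error and the numbers at the foot are cells. The intervals of the genotypes are apart in T cells (16.1% and 25.03%) and DC (6.00% and 21.01%) and overlap in all other classes.

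All 40 members were higher in 6PGDKO than in WT T cells when UMIs were summed over the class and scaled to CPM, against 63.0% of all 12518 genes tested there. The 18 S genes together were at 790 and 1080 CPM, a log2 ratio of 0.45 (0.40 to 0.50), and the 21 G2/M genes at 583 and 940 CPM, a log2 ratio of 0.69 (0.64 to 0.74). The median member had a log2 ratio of 0.61, where the median of all genes was 0.10. Of the members only the checkpoint kinase Bub1 passed a 2-fold ratio, against 3.35% of all genes, at 5.10 and 10.5 CPM (log2 ratio 1.04, 0.49 to 1.605). Levels are compared between libraries for 1 gene at a time and not between genes.

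Among the replication genes in T cells, the helicase subunits Mcm2 to Mcm7 had log2 ratios of 0.20 to 0.58, with Mcm5 at 37.0 and 54.2 CPM (0.55, 0.34 to 0.77) and Mcm2 at 30.5 and 35.0 CPM, whose interval of -0.06 to 0.45 reached 0. The loader Cdc6 had the largest ratio of the S list, from 6.16 to 11.1 CPM (0.85, 0.34 to 1.37), on 58 and 74 UMIs. Its partner Cdc45, which joins the active helicase, stood at 7.97 and 11.0 CPM with an interval of -0.02 to 0.94. Uhrf1, which carries DNA methylation over to the new strand, went from 20.1 to 34.4 CPM (0.78, 0.49 to 1.06), and Hells, a chromatin remodeler of the same process, from 35.2 to 58.9 CPM (0.74, 0.53 to 0.96). The enzymes of deoxynucleotide synthesis had like ratios, with thymidylate synthase Tyms from 37.4 to 53.2 CPM, the reductase subunit Rrm2 from 22.3 to 34.0 CPM and thymidine kinase Tk1 from 17.0 to 24.9 CPM, with log2 ratios of 0.51, 0.61 and 0.55. Pclaf was at 95.8 and 146.5 CPM (0.61, 0.48 to 0.75). The members common outside the called cells had low ratios, with Pcna at 129 and 157 CPM (0.29, 0.17 to 0.41) and Slbp at 110 and 123 CPM (0.16, 0.03 to 0.30).

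Among the mitotic genes in T cells, Mki67 was at 79.0 CPM in WT and 133 CPM in 6PGDKO (log2 ratio 0.75, 0.61 to 0.89) and Top2a at 105 and 176 CPM (0.75, 0.62 to 0.87). Both are the most counted members of the G2/M list, and cells with an Mki67 UMI made up 8.19% of WT and 12.6% of 6PGDKO T cells. Cyclin A2 (Ccna2), which acts in S and G2, went from 19.0 to 36.4 CPM (0.93, 0.65 to 1.22), and the mitotic cyclin Ccnb2 from 20.2 to 32.6 CPM (0.69, 0.40 to 0.98), while Cdk1, their kinase, went from 24.6 to 37.9 CPM (0.63, 0.36 to 0.89). The kinetochore motor Cenpe (0.97, 0.64 to 1.29), the spindle protein Nusap1 (0.94, 0.73 to 1.16) and the spindle motor Kif11 (0.84, 0.57 to 1.10) were next to Bub1 and Ccna2 at the top of the list. Birc5 and Aurkb, 2 parts of the chromosomal passenger complex, had ratios of 0.66 and 0.72, and Ube2c, the ubiquitin enzyme of the anaphase-promoting complex, 0.68. For 5 of the mitotic genes the interval reached 0, namely the kinase Plk1 (0.10, -0.42 to 0.62), the motor Kif23 of cytokinesis (0.09, -0.19 to 0.37), the APC activator Cdc20 (0.28, -0.11 to 0.67), Ccnb1 (0.48, -0.07 to 1.02) and Aurka (0.64, -0.01 to 1.29). Stmn1 was at 236 and 391 CPM (0.73, 0.65 to 0.81).

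**Figure D3:**
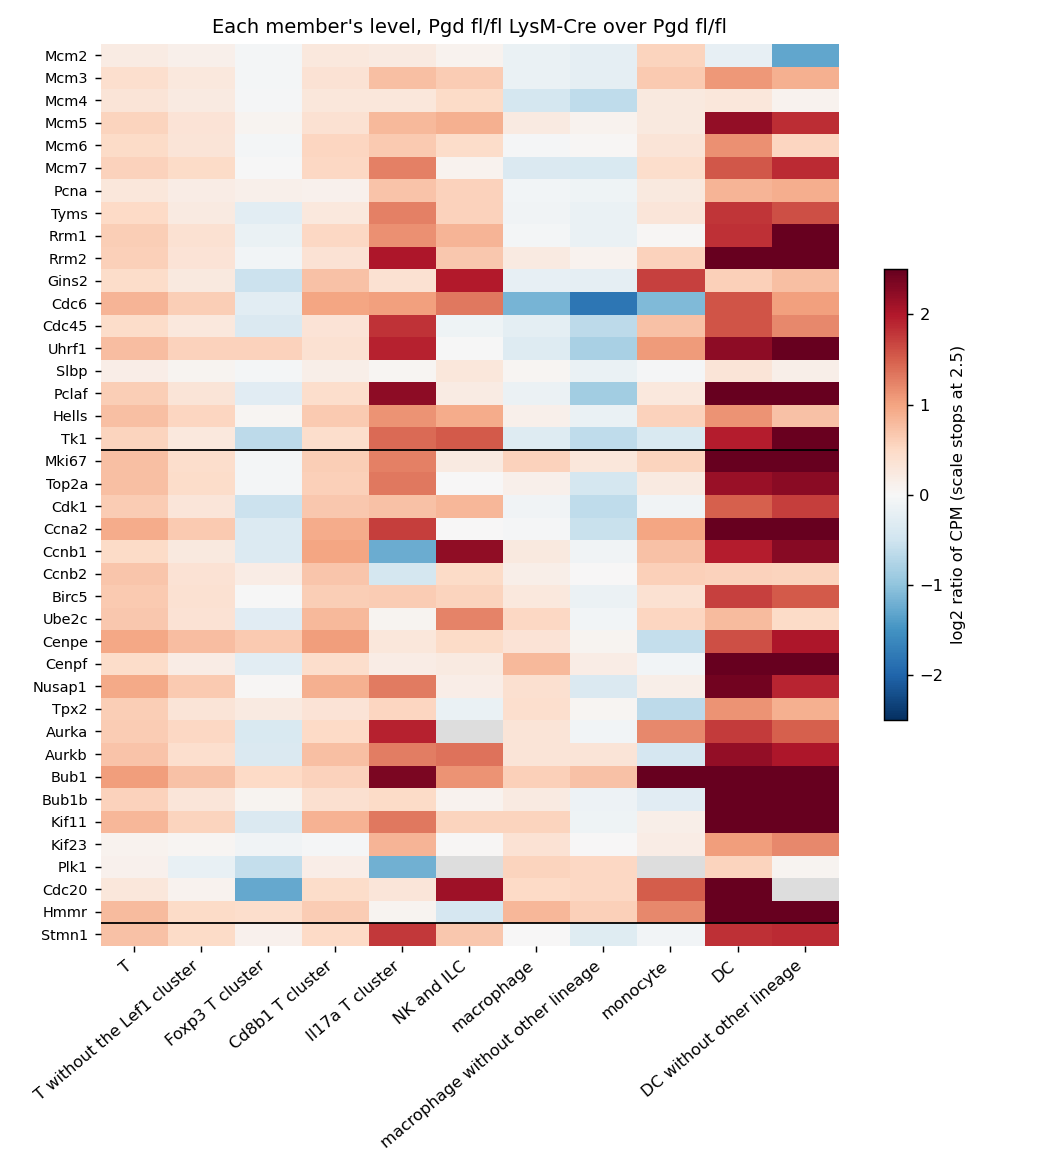
Log2 ratio of CPM, 6PGDKO (Pgd fl/fl LysM-Cre) over WT (Pgd fl/fl), for each member (S genes above the first line, G2/M genes below it, Stmn1 last) in 11 groups of cells; red is higher in 6PGDKO, the colors stop at 2.5 and grey marks fewer than 10 UMIs. The T column is red for all 40 members, the Foxp3 cluster mixes both colors, macrophages are blue for most S genes and pale red for most G2/M genes, and DC hold the darkest reds.

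The T cells of the 2 libraries were not the same mixture. A cluster led by Dapl1, Lef1 and Tcf7, genes of T cells that have not met antigen, made up 29.7% of the WT and 4.59% of the 6PGDKO T cells, and only 20 of its 421 WT cells (4.75%, 2.93 to 7.24) were cycling. Without it the T cell shares were 208 of 996 (20.9%) and 213 of 831 (25.6%), a difference of 4.75 points (0.866 to 8.66) where the whole class gave 8.94. When the clusters of 6PGDKO T cells were weighted as in the WT library, the difference was 5.77 points. This value has no interval and gives the 6PGDKO share of the Lef1 cluster, 5 of 40 cells (12.5%), the WT weight of 29.7%. With a second random thinning that share was 2.5%, and the weighted difference was not computed again. Without the Lef1 cluster, 18 of 18 S and 20 of 21 G2/M genes were higher in 6PGDKO (57.3% of all genes), and the summed log2 ratios were 0.28 (0.23 to 0.33) and 0.41 (0.36 to 0.46). Leaving this cluster out was chosen after the values were seen.

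Among the T cell clusters the share was higher in 6PGDKO in the Cd8b1 cluster, with an interval off 0, and nearly equal in the Foxp3 cluster. In the Lef1 cluster 5 of 40 6PGDKO cells (12.5%, 4.19 to 26.8) were cycling, a difference of 7.75 points (0.287 to 21.5) that turned to -2.73 with a second random thinning, while its summed log2 ratios were negative, at -0.41 for the S and -0.78 for the G2/M genes. In the cluster led by Cd8b1, Cd8a and Nkg7, genes of cytotoxic T cells, 111 of 518 WT (21.4%) and 115 of 400 6PGDKO cells (28.8%) were cycling, a difference of 7.32 points (1.69 to 13.01). Of its members 18 of 18 S and 20 of 21 G2/M genes were higher in 6PGDKO (60.1% of all genes), with summed log2 ratios of 0.35 (0.28 to 0.41) and 0.64 (0.57 to 0.72). Cenpe was the single member past 2-fold (4.16% of all genes), at 16.5 and 34.0 CPM (1.05, 0.58 to 1.52), and Ube2c (61.3 to 108 CPM), Ccna2 (24.2 to 46.1 CPM) and Mki67 (92.4 to 142 CPM) had ratios of 0.82, 0.93 and 0.62. Pcna had 155 and 168 CPM and a ratio whose interval, -0.06 to 0.28, covered 0.

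In the Foxp3 cluster, whose name gene defines regulatory T cells, 70 of 282 WT cells (24.8%) and 68 of 270 6PGDKO cells (25.2%) were cycling, a difference of 0.362 points (-6.83 to 7.59). With the main depth and call, its WT share was the highest of the 5 WT T cell clusters. Its interval (19.9 to 30.3) overlapped that of the Cd8b1 cluster. The depth cut left out 128 of its 410 WT cells and 42 of the 560 Cd8b1 cells. Without thinning the Foxp3 WT share was below that of Cd8b1 (24.4% and 38.0%). So it was at 2000 UMIs (14.3% and 15.8%) and with 2 genes (36.5% and 38.2%). It was above at 5000 UMIs (53.5% and 32.7%), with a second random thinning and with 5 genes. It was also above without 5 members, without cells carrying markers of another lineage and without the 5% highest Scrublet scores. In the Foxp3 cluster only 4 of 18 S and 7 of 21 G2/M genes were higher in 6PGDKO (49.3% of all genes). The summed log2 ratios were -0.08 (-0.17 to 0.01) and -0.10 (-0.19 to 0.00). Mki67 was at 154 and 148 CPM and Top2a at 178 and 172 CPM, while Pclaf (173 and 141 CPM, -0.29, -0.52 to -0.05), Cdk1 (43.9 and 30.3 CPM, -0.54, -1.04 to -0.04) and Cdc20 (28 and 11 UMIs, -1.27, -2.43 to -0.22) were lower and Cenpe (19.7 and 30.8 CPM, 0.65, 0.04 to 1.27) higher. The difference between the Foxp3 and Cd8b1 clusters in their response was not tested.

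The Il17a cluster, led by Ccl20 and Il17a, had 22 of 156 WT (14.1%) and 26 of 123 6PGDKO cells (21.1%) cycling, a difference of 7.04 points (-1.88 to 16.3). Its members were mostly higher in 6PGDKO, with 18 of 18 S and 18 of 21 G2/M genes higher (51.6% of all genes) and 19 of the 40 past 2-fold (5.93% of all genes). Pclaf went from 32.7 to 153 CPM (2.23, 1.70 to 2.79) and Mki67 from 52.7 to 126 CPM (1.26, 0.81 to 1.73). These UMIs sit in few cells: the 5 richest 6PGDKO cells held 66.1% of the Pclaf and 54.1% of the Mki67 UMIs. In the interferon cluster led by Ifit3, 5 of 40 and 4 of 38 cells were cycling.

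The same T cells were also sorted by single transcripts in place of clusters. Cells with a Foxp3 UMI and neither Cd8a nor Cd8b1 were cycling at 24.4% of 213 and 23.2% of 185 (-1.17 points, -9.45 to 7.28). Cells with Cd8a or Cd8b1 beside Cd4 or Foxp3 were at 36.7% of 79 and 35.9% of 78 (-0.811 points, -15.5 to 14.0). Cells with none of these genes were at 7.63% of 249 and 14.2% of 106 (6.52 points, -0.174 to 14.9). Cells with Cd8a or Cd8b1 and neither Cd4 nor Foxp3 were at 16.3% of 676 and 27.5% of 414 (11.3 points, 6.22 to 16.5), and cells with Cd4 without Foxp3 or CD8 genes at 9% of 200 and 20.5% of 88 (11.5 points, 2.89 to 21.6). Neither of these groupings removes the Lef1 cluster. Among cells without a Foxp3 UMI, those with Pdcd1, the gene of the PD-1 receptor, were at 16.2% of 204 and 24.0% of 196 (7.80 points, -0.055 to 15.6). Those without Pdcd1 were at 14.5% of 1006 and 26.4% of 481. Most of the Lef1 cluster falls among the latter, since 0.713% of its WT and 7.5% of its 6PGDKO cells had Pdcd1. The part of the Lef1 cluster in this gap was not tested. Ccna2 (11.8 to 42.4 CPM, 1.84, 1.02 to 2.76) and Pclaf (51.2 to 157 CPM, 1.61, 1.21 to 2.03) were higher in the 6PGDKO cells with Pdcd1, where 17 of 18 S and 20 of 21 G2/M genes were higher (55.4% of all genes).

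**Figure D4:**
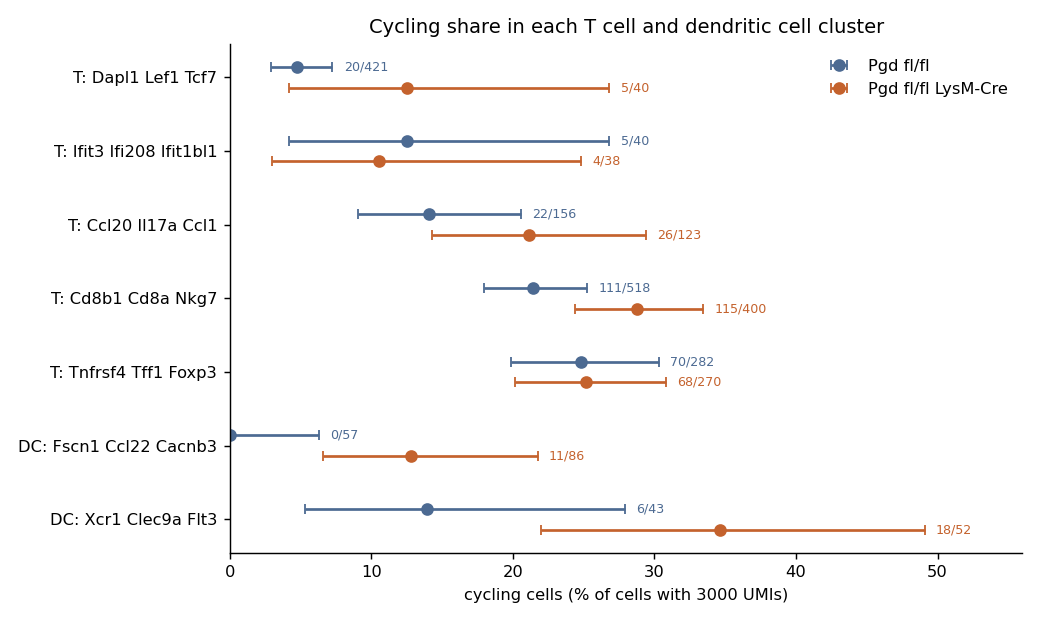
Percent of cells called cycling (x axis, cells thinned to 3000 UMIs) in each T cell and DC cluster, named by its leading genes, in WT (Pgd fl/fl, blue) and 6PGDKO (Pgd fl/fl LysM-Cre, orange), with exact 95% intervals and cycling over all cells beside each point. The Lef1 cluster of the WT library is the lowest T cell point at 4.75% of 421 cells, and the Foxp3 cluster has the closest pair at 24.8% and 25.2%.

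In DC nearly every member was higher in the 6PGDKO library. Of the 40 members 39 were above the WT level (17 of 18 S and 21 of 21 G2/M genes, 58.9% of all genes) and 32 were past 2-fold (8.06% of all genes), with summed log2 ratios of 1.31 (1.15 to 1.47) for the S genes, from 285 to 705 CPM, and 1.90 (1.71 to 2.09) for the G2/M genes, from 193 to 717 CPM. Mki67 had 16 UMIs in WT and 221 in 6PGDKO DC, or 11.55 and 94.4 CPM (3.03, 2.30 to 3.86). Pclaf had 16 and 305 UMIs (3.50, 2.77 to 4.32), the centromere protein Cenpf 5 and 81 (3.26, 1.98 to 4.92) and Top2a 35 and 265 (2.16, 1.65 to 2.72). Rrm2 had 1 and 60 UMIs, a log2 ratio of 5.15 with an interval from 2.62 to 10.5, and Kif11 3 and 70 UMIs, with 3.79 (2.18 to 6.099). The spindle receptor Hmmr (4.63, 2.08 to 9.97), Bub1 (4.24, 1.66 to 9.59) and Cdc20 (4.05, 1.45 to 9.40) each had 1 UMI in the WT DC. Mcm2 was the single member below WT, at 15.2 and 13.2 CPM (-0.20, -1.04 to 0.68), and Slbp (56.3 and 70.5 CPM) and Plk1 (8 and 20 UMIs) had intervals over 0. The 5 richest 6PGDKO cells held between 19.4% and 78.6% of a member's UMIs.

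Both DC clusters had a higher share in 6PGDKO at 3000 UMIs. In the cluster led by Xcr1 and Clec9a, markers of cross-presenting DC, 6 of 43 WT (14.0%) and 18 of 52 6PGDKO cells (34.6%) were cycling, a difference of 20.7 points (3.10 to 36.1), but without thinning the shares were 60.5% and 59.6%, a difference of -0.850 points. Of the 18 cycling 6PGDKO cells, 12 carried both lists. In the cluster led by Fscn1 and Ccl22, genes of mature migratory DC, 0 of 57 WT cells were cycling, which allows up to 5.26%, against 11 of 86 6PGDKO cells (12.8%, 6.56 to 21.7). Of those 11 cells 72.7% carried at least 3 UMIs of T cell receptor or B cell genes, against 38.4% of all 6PGDKO cells of the cluster. Without such cells the difference in this cluster was 5.66 points (-3.51 to 15.4), and without thinning 11.1 points (-5.11 to 26.1). Leaving out every cell with such UMIs, DC were cycling at 4 of 72 (5.56%) and 16 of 89 (17.98%), 28 of the 40 members were past 2-fold (7.01% of all genes), and the summed log2 ratios were 1.27 and 1.81. The 7 T cell markers were all detected in DC and summed to 674 CPM in non-cycling and 884 CPM in cycling WT DC and to 844 and 1175 CPM in 6PGDKO DC. Their part in the result beyond these values was not tested.

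In macrophages, in which Pgd RNA was lower, the lists had opposite signs. Of the 18 S genes 4 were higher in 6PGDKO and of the 21 G2/M genes 19 were (59.5% of all genes), with summed log2 ratios of -0.10 (-0.16 to -0.04), from 498 to 465 CPM, and 0.37 (0.31 to 0.43), from 396 to 511 CPM. The sign of the S list turned (0.19) when the cell cycle genes were kept for clustering. Mki67 was at 57.1 and 84.9 CPM (0.57, 0.41 to 0.73), Cenpf at 16.5 and 29.1 CPM (0.82, 0.53 to 1.11), Hmmr at 8.10 and 14.4 CPM (0.83, 0.41 to 1.26) and Ube2c at 29.3 and 42.1 CPM (0.52, 0.29 to 0.75). Top2a, at 62.4 and 68.0 CPM, and Cdk1, at 21.03 and 19.7 CPM, had intervals over 0. On the S side Cdc6 had 36 and 18 UMIs (log2 ratio -1.17, -2.07 to -0.31), and the helicase subunit Mcm7 was at 25.2 and 19.5 CPM (-0.37, -0.65 to -0.08). Stmn1 was at 116 and 117 CPM.

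The G2/M ratio of this pattern fell when cells that carry T or B cell RNA were left out. These had at least 3 UMIs of T cell receptor or of B cell genes, and their part in the pattern was not tested. Such cells were 25.7% of the WT and 37.7% of the 6PGDKO macrophages, and 34.0% and 53.3% of the cycling ones, and the 7 T cell markers, of which none was at 0, summed to 574 CPM in non-cycling and 694 CPM in cycling WT macrophages and to 813 and 1176 CPM in 6PGDKO macrophages. Without those cells 12.9% of 511 WT and 11.5% of 425 6PGDKO macrophages were cycling, 3 of 18 S and 11 of 21 G2/M genes were higher (54.5% of all genes), and the summed log2 ratios were -0.25 (-0.33 to -0.17) and -0.04 (-0.13 to 0.05). Top2a then stood at 54.6 and 40.03 CPM (-0.45, -0.70 to -0.19), Pclaf at 39.9 and 21.8 CPM (-0.87, -1.203 to -0.55) and Cdk1 at 22.5 and 14.5 CPM (-0.64, -1.06 to -0.22), all lower in 6PGDKO, while Mki67 stayed higher (53.1 and 65.0 CPM, 0.29, 0.07 to 0.52). In cells thinned to 3000 UMIs the G2/M ratio of all macrophages was 0.09 (-0.06 to 0.24). Pgd was at 102 CPM in cycling and 107 CPM in non-cycling WT macrophages and at 30.4 and 28.9 CPM in those of the 6PGDKO library.

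The smaller classes had fewer UMIs behind each member. In NK and ILC 16 of 18 S and 17 of 19 tested G2/M genes were higher in 6PGDKO (52.3% of all genes), with summed log2 ratios of 0.51 (0.36 to 0.66) and 0.37 (0.18 to 0.57). Without cells carrying markers of another lineage the G2/M ratio was -0.032 (-0.24 to 0.18). The helicase partner Gins2 (4 and 17 UMIs, 1.98, 0.37 to 4.01), Tk1 (11 and 34, 1.53, 0.51 to 2.65), Ube2c (17 and 43, 1.24, 0.40 to 2.14) and Cdc20 (3 and 14, 2.12, 0.28 to 4.56) were among the 8 members past 2-fold (5.23% of all genes). Between 61.8% and 83.7% of their 6PGDKO UMIs lay in 5 cells. In monocytes 15 of 18 S and 14 of 20 tested G2/M genes were higher (54.5% of all genes), with summed ratios of 0.31 and 0.24, of which the first was -0.028 (-0.31 to 0.26) in cells thinned to 3000 UMIs. Gins2 (6 and 59 UMIs, 1.70, 0.49 to 3.20), Uhrf1 (11 and 70, 1.07, 0.15 to 2.14) and Bub1 (1 and 20, 2.72, 0.08 to 8.10) were among the 6 members past 2-fold there (6.43% of all genes), and Tpx2, a spindle assembly factor, was lower (34 and 65 UMIs, -0.66, -1.28 to -0.02). In monocytes the cells with T or B cell RNA were 60.0% of the 10 cycling WT and 66.7% of the 27 cycling 6PGDKO cells, against 22.0% and 31.5% of all monocytes. Cycling monocytes were also deeper than the rest, with medians of 14604 and 8526 UMIs in WT and 25509 and 10008 UMIs in 6PGDKO. This RNA was counted before thinning, so deeper cells can reach 3 UMIs more readily.

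The 36 B cells of the 6PGDKO library held 55 S and 15 G2/M UMIs, against 1334 and 759 in 573 WT B cells, too few to compare single members. Top2a had 142 UMIs in WT and 1 in 6PGDKO B cells (-2.99, -8.30 to -0.49). The Cd207 cluster had 15 of 18 S but 3 of 21 G2/M genes higher in 6PGDKO (48.1% of all genes), with summed ratios of 0.29 (0.18 to 0.40) and -0.29 (-0.40 to -0.18). The checkpoint kinase Bub1b was at 28.3 and 14.0 CPM there (-1.01, -1.70 to -0.34). In epithelial cells 14 of 18 S and 9 of 19 tested G2/M genes were higher (53.2% of all genes), and Cdc6 had 5 and 25 UMIs (1.70, 0.29 to 3.45), all of them in 5 cells or fewer per library.

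The balance of phases was read from the same calls at 3000 UMIs. S-only cells were 62.3% of the 228 cycling WT and 54.6% of the 218 cycling 6PGDKO T cells (difference -7.69 points, -16.7 to 1.44), 75.0% of 16 and 66.7% of 24 in NK and ILC (-8.33, -33.2 to 20.6) and 70.0% of 10 and 66.7% of 27 in monocytes. In macrophages they were 43.0% of 100 and 36.2% of 105 (-6.81, -19.8 to 6.48). G2/M-only cells were 16 in each library among T cells (7.02% and 7.34%), and 27.0% and 31.4% of cycling macrophages. Without thinning the S-only shares of the 2 classes were closer, at 71.7% and 60.7% in T cells and 65.1% and 65.3% in macrophages. With 5 members left out of the call, the S-only shares were 35.8% and 38.1% in T cells and 26.0% and 18.3% in macrophages. The T cell difference was then 2.30 points (-8.74 to 13.2), so these levels depend on which genes make the call. Cells positive for both lists were 70 and 83 of the cycling T cells (30.7% and 38.1%, 7.37 points, -1.43 to 16.04). In DC 1 of 6 cycling WT and 17 of 29 cycling 6PGDKO cells were positive for both. In the Cd207 cluster the S-only cells were 4 of 21 and 12 of 35, and in epithelial cells 3 of 10 and 4 of 16. Over all cells the S-only share was 55.5% in WT and 47.3% in 6PGDKO (-8.20 points, -14.7 to -1.58).

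**Figure D5:**
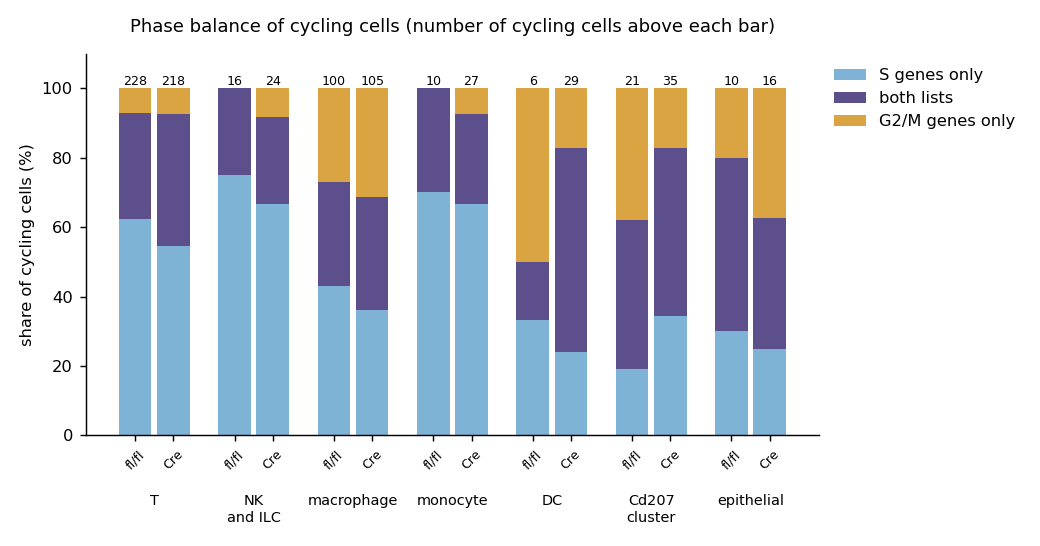
Share of cycling cells (y axis, percent) that carried at least 3 S genes only (light blue), both lists (purple) or at least 3 G2/M genes only (gold), in WT (fl/fl) and 6PGDKO (Cre) cells of each class, with the number of cycling cells above each bar. S-only cells are 62.3% and 54.6% in T cells against 43.0% and 36.2% in macrophages, and G2/M-only cells are 27.0% and 31.4% in macrophages against 7.02% and 7.34% in T cells.

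Other genes of the cycle, from lists that did not call the cells, were higher in the cells the members had called. Of 30 other S genes 30 were higher in cycling than in non-cycling T cells and macrophages of both libraries (58.1% and 53.3% of all genes in WT and 6PGDKO T cells, 58.9% and 61.7% in macrophages), and of 40 other G2/M genes 39 or 40 were. Genes of G1 and cell cycle entry, such as cyclins D and E and Myc, were higher for 15 to 18 of 18, with summed log2 ratios of 0.41 and 0.32 in T cells and 0.94 and 0.59 in macrophages of WT and 6PGDKO. The genes that restrain the cycle summed lower in cycling cells, at -0.49 in T cells of each library and at -0.39 and -0.10 in WT and 6PGDKO macrophages. By count the genes of this list were mixed. In T cells 5 of 15 tested genes were higher in cycling WT and 7 of 15 in cycling 6PGDKO cells. In macrophages 7 of 16 and 9 of 15 were, and the median log2 ratio in those of 6PGDKO was 0.13. Genes of nucleotide supply were higher for 19 or 20 of 20. The 7 genes of the pentose phosphate pathway, which makes ribose for nucleotides, summed higher in cycling T cells (0.57, 0.48 to 0.66, and 0.29, 0.19 to 0.39), whereas in macrophages their intervals covered 0 (0.04 and -0.02).

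Genes outside the members were ranked by their smallest ratio of cycling over non-cycling cells in the 4 combinations of T cells or macrophages with library, and these share the calls. The first 20 had log2 ratios of 4.38 to 5.63 and were led by the mitotic kinase Pbk (5.63), the midbody protein Shcbp1 (5.29), the replication-dependent histone Hist1h3c (5.11), the cohesin acetylase Esco2 (5.04) and the kinetochore protein Nuf2 (4.99). Histones Hist1h2ab and Hist1h2af, the protector of cohesion Sgo1, the kinetochore scaffold Knl1 and the transcription factor Foxm1, which drives the G2/M genes, were also among them. Between genotypes, 29 of 30 other S genes and 38 of 40 other G2/M genes were higher in 6PGDKO T cells (63.0% of all genes), with summed log2 ratios of 0.32 (0.28 to 0.37) and 0.34 (0.32 to 0.37). In macrophages 9 of 30 and 29 of 40 were (59.5% of all genes), with summed ratios of -0.04 (-0.10 to 0.01) and 0.01 (-0.01 to 0.04). Compared only among cycling cells, the other S genes of T cells summed to a ratio of 0.03 (-0.03 to 0.08) and the other G2/M genes to 0.14 (0.11 to 0.17). In cycling macrophages these ratios were -0.34 (-0.42 to -0.25) and 0.07 (0.02 to 0.11).

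Cycling cells were deeper than the rest, with medians of 8113 and 5053 UMIs in WT and 9139.5 and 5378 UMIs in 6PGDKO T cells. In macrophages the medians were 15240.5 and 11873 in WT and 16249 and 13029 in 6PGDKO, and in DC 14156.5 and 13499, and 21107 and 13741. RNA of another lineage was counted in unthinned cells of every class, so its shares depend on depth. Cells with RNA of another lineage were 4.23% of WT and 9.30% of 6PGDKO T cells, and 7.02% and 11.9% of the cycling ones. Left out, they changed the T cell difference from 8.94 to 8.68 points. The doublet caller marked 1 of 6742 barcodes (0.0148%), so its calls were not used. Without the 5% of cells with the highest doublet scores the differences in cycling share were 9.13 points (5.70 to 12.6) in T cells and 15.5 points (6.58 to 24.0) in DC.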

How the data were processed

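Single-cell RNA-seq was made from 1 library per genotype. The deposited values are whole-number UMI counts per gene and barcode, which the authors made with Cell Ranger 6.1.2 on mm10 (per the submitters' processing notes, which also name Seurat). Suspensions were tagged with oligos, and the 12 oligo features were left out. Barcodes were dropped below 500 or above 7500 genes or above 15% mitochondrial RNA. Clusters were built with Seurat 5.3.0 in R 4.3.3 (2000 variable genes, 30 components, 20 neighbours, resolution 0.8) from non-cycling cells without cell cycle genes. Cycling cells were then placed by their 20 nearest neighbours, and 84.3% of the 928 placed had at least 16 neighbours of 1 cluster. This placement and the limits for naming clusters were set after the data were seen.

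Cells were thinned to 3000 UMIs for calls and to 1000 UMIs for the neutrophil background. Levels (CPM) are UMIs summed over a class and scaled to a common total, and log2 ratios of genes with at least 10 UMIs were compared. Exact binomial (Clopper-Pearson), Newcombe and exact conditional 95% intervals were computed with SciPy 1.17.1, and the share that a count of 0 allows uses 3 counts. With 1 library per genotype no test was possible. Values are given for landmark members and for any member past 2-fold with an interval off 0, and other members were named after their values were seen. The members and lists were chosen with earlier results of these data known. The scripts were tested on simulated data. Alternatives covered thinning, the number of genes in the call, clustering, scaling, and cells with markers of another lineage.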

Additional observations from a re-analysis of the deposited data

How the results depend on the processing

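No paired analysis was possible because each genotype has 1 library, and for the same reason no library could be left out. Of 329 alternative values 288 had the sign of the reported value. By size, 274 stayed within its counting interval, some of them with the opposite sign where that interval covers 0, 48 moved beyond it and 7 turned the sign of a value whose interval was off 0. The causes were not tested. Some alternatives, among them the T cells without the Lef1 cluster, were chosen after the data were seen. The T cell difference in cycling share was positive in 19 of 19 alternatives (4.32 to 12.6 points) and that of DC in 14 of 14 (4.33 to 15.5), but for DC the interval covered 0 in 5 of the 14, among them 5000 UMIs, no thinning and Seurat phase scores.

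At 5000 UMIs the difference in cycling share was 12.6 points in T cells, 4.33 in DC and 14.2 in the Cd8b1 cluster. Without thinning it was 6.09 in macrophages, 7.81 in monocytes, 5.33 in DC and -0.850 in the Xcr1 cluster. In T cells it was 4.32 by Seurat phase scores and 4.75 without the Lef1 cluster. In the Lef1 cluster it was -2.73 with a second random thinning and -0.950 with 5 genes. The S-only difference was 28.8 points in NK and ILC with 5 genes and 2.30 in T cells without 5 members.

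The remaining values are summed log2 ratios. With a median ratio size factor they were 0.35 (S) and 0.59 (G2/M) in T cells and -0.16 and 0.31 in macrophages. By the mean of each cell's CPM they were 0.75 (G2/M) in T cells, 0.32 and 0.13 (S, G2/M) in NK and ILC, 0.18 (G2/M) in macrophages, 0.011 (S) in monocytes, and 1.07 and 1.597 in DC. With all genes used for clustering they were 0.73 (S) in NK and ILC, 0.19 (S) in macrophages, 0.48 (G2/M) in monocytes, and 1.08 and 1.36 in DC. At resolution 1.6 they were 0.54 (S) in T cells, 0.35 (S) in NK and ILC and 0.053 (G2/M) in monocytes. With types from each cell's own markers they were 0.29 and 0.45 in T cells, 1.76 and 4.005 in NK and ILC, 0.31 (G2/M) in macrophages, 1.33 and 2.003 in monocytes, and 1.03 and 1.51 in DC. Without cells carrying markers of another lineage they were 0.75 (G2/M) in T cells, -0.032 (G2/M) in NK and ILC, -0.25 and -0.036 in macrophages and 0.68 (G2/M) in monocytes. Without the 5% highest Scrublet scores they were 0.26 (G2/M) in macrophages and 0.75 (G2/M) in monocytes. Thinned to 3000 UMIs they were 0.87 (G2/M) in T cells, 0.089 (G2/M) in macrophages, -0.028 (S) in monocytes, and 0.90 and 1.65 in DC. Without the Lef1 cluster T cells gave 0.28 and 0.41.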
